A study of Rattus norvegicus with 6 samples.

Results

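The SOCS family consists of the suppressors of cytokine signalling Socs1 to Socs7 and the founding member Cish. Its genes were taken from the deposited count table by symbol, and all 8 of them were found among 22574 symbols. RNA had been sequenced from rat aortic smooth muscle cells (RASMCs), primary cells of male Sprague-Dawley rats aged 8 weeks, whose endothelium and adventitia had been removed. In 3 libraries, titled CitH3+dsDNA, the cells had been stimulated with citrullinated histone H3 (H3CIT, 0.03 μM) plus double-stranded DNA (dsDNA, 300 ng/ml), both of which are components of extracellular traps. The other 3 libraries, titled Ctr, came from cells given bovine serum albumin. The length of the stimulation was not given in the sources used here. According to the reporting summary of the study, wells of cells from a single rat served as replicates in vitro, so p-values measure the spread between wells and library preparations rather than between animals.

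SOCS proteins are feedback inhibitors of cytokine receptors. Janus kinases (JAKs) on an activated receptor phosphorylate STAT transcription factors, and STATs in turn switch on SOCS genes. Each SOCS protein holds an SH2 domain, which binds phosphorylated tyrosines, and a SOCS box, which recruits elongins and a cullin to mark the bound protein for degradation. SOCS1 and SOCS3 also carry a short region that blocks the kinase directly. In vascular smooth muscle, SOCS1 and SOCS3 are known to restrain responses to interferon and to interleukin-6-type cytokines, respectively. Cish and Socs2 are classical targets of STAT5, while Socs4 to Socs7 have been linked mainly to growth factor and insulin receptors.

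The promoters of Socs1 and Cish are shown because they carry contrasting elements and the genes behaved differently after stimulation. As the pair was picked on both traits, it cannot show a link between them. Windows of 300 bases, from 250 before to 50 after an annotated start site, were at hand from RefSeq (build GRCr8) for 5 of the 8 genes. Capitals mark matches, on either strand, to TTCNNNGAA, the core of the gamma-activated site bound by STAT dimers, and to the core of the interferon response element, 2 runs of GAAA with 2 bases between them. The Socs1 window lies on the plus strand at chr10:5389324-5389623 and the Cish window on the plus strand at chr8:116850719-116851018.
Socs1: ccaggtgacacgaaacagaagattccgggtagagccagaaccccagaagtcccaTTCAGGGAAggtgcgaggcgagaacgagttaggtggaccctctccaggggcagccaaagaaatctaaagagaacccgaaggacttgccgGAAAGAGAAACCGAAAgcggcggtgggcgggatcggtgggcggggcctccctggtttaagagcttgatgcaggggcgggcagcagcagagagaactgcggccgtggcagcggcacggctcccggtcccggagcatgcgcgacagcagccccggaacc
Cish: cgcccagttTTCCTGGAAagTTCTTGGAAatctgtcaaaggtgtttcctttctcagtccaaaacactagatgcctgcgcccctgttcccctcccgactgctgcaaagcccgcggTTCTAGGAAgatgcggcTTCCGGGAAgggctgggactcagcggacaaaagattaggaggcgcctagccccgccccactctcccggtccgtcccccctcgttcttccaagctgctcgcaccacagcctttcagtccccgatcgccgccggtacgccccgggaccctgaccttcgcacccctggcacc

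The Socs1 window held 2 matches to the interferon-response-element core, which overlap each other and lie between 107 and 92 bases before the start site, and 1 match to TTCNNNGAA. The Cish window held 4 matches to TTCNNNGAA and none to the other motif. Over all 33469 RefSeq windows of this length, 8.87% held TTCNNNGAA and 3.92% held the interferon-response-element core. At least 2 matches to that core were present in 89 windows, and at least 4 to TTCNNNGAA in 2 windows. The Socs3, Socs4 and Socs6 windows held neither motif. For Socs3 and Socs6 the start site used lies 1207 and 6128 bases inside the annotated gene, respectively. These windows do not reach the sequence before the gene's outer end and may not cover the promoter in use. These matches are letters in a window and were not tested for binding in these cells.

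**Figure D1:**
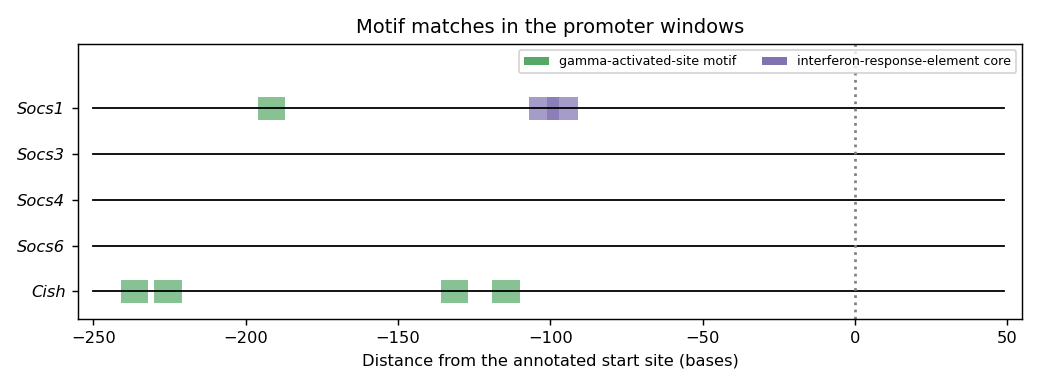
Positions of motif matches (boxes) in the 5 promoter windows, with the distance from the annotated start site in bases on the horizontal axis and the start site as a dotted line. Socs1 carries 2 overlapping interferon-response-element cores and 1 gamma-activated-site motif, and Cish carries 4 gamma-activated-site motifs.

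The 6 libraries held between 17573905 and 18742395 counts. All 8 markers of smooth muscle were expressed, with summed levels of 5746 to 6303 CPM (read counts relative to the TMM-scaled library size) in stimulated cells and 8484 to 9225 CPM in controls. In edgeR's quasi-likelihood test, 4 of these markers were lower (Acta2, Tagln, Cnn1 and Smtn) and Myocd was higher. Markers of macrophages summed to 72.7 to 75.0 CPM in stimulated cells and 73.5 to 76.6 CPM in controls. The most counted of them were Cd14, with 921 to 994 counts per library, and Csf1r, with 296 to 374. Ptprc and Itgam were at 0 or 1 counts in each library. Endothelial markers summed to at most 10.5 CPM and lymphocyte markers to at most 0.616 CPM in any library. None of the 5 macrophage and 4 endothelial markers tested was called, and all lymphocyte markers were too low to be tested. In such bulk samples, fewer cells of a type and less RNA per cell cannot be told apart.

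After H3CIT+dsDNA, Socs1 and Socs3 rose and the other 6 members did not pass the test. The rise was 10.7-fold for Socs1 and 1.62-fold for Socs3. No member fell. Calls were made at adjusted p-values under 0.05, a threshold that 2.20% of the 12591 genes tested reached in either direction and 1.94% as higher in stimulated cells. The median log2 fold change was 0.28 over the 8 members and -0.00 over all genes tested. The stimulated and control libraries did not overlap for 4 members, Socs1, Socs2, Socs3 and Socs6, where 19.1% of all genes tested showed no overlap.

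**Figure D2:**
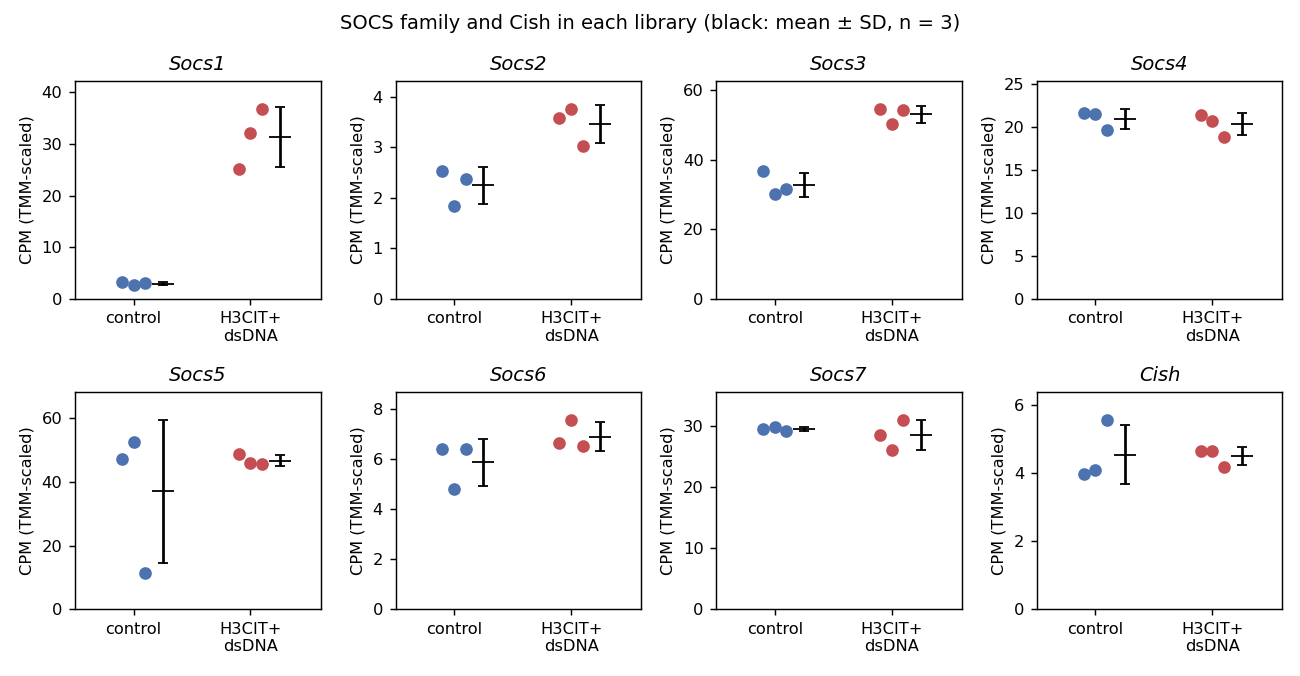
Level of each member in each library, in CPM after TMM scaling, with its own vertical axis per gene (points are libraries, black bars the mean ± SD of 3 libraries). Socs1 and Socs3 are higher in every stimulated library than in every control, and control replicate 3 stands far below the other libraries for Socs5.

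Socs1 encodes the inhibitor that acts on JAK1, JAK2 and TYK2. It was covered by 455, 565 and 666 reads after stimulation and by 57, 48 and 56 reads in controls. The lowest stimulated library thus lay far above the highest control, and the stimulated libraries were spread more widely than the controls. Levels were 31.3 ± 5.84 CPM and 2.93 ± 0.312 CPM (SD, n = 3 each). The log2 fold change was 3.41 with a 95% interval of 3.08 to 3.74 (adjusted p = 7.00e-09), and by p-value Socs1 ranked 37 among all genes tested.

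Socs3 encodes the inhibitor that docks on the shared receptor chain gp130. Its counts were 989, 888 and 989 in stimulated cells against 655, 559 and 588 in controls. All stimulated libraries were above all controls, although the gap was small beside that of Socs1. Mean levels were 53.1 ± 2.38 CPM and 32.8 ± 3.44 CPM (SD, n = 3 each). The log2 fold change was 0.70 with a 95% interval of 0.54 to 0.85 (adjusted p = 4.14e-05).

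Socs2 and Cish, both STAT5 targets, were the least counted members. Socs2 counts were 65, 66 and 55 in stimulated cells and 45, 34 and 44 in controls, so the groups did not overlap. Its levels were 3.45 ± 0.375 CPM and 2.24 ± 0.362 CPM (SD, n = 3 each). The log2 fold change of 0.62 was close in size to that of Socs3, but its 95% interval was wide, from 0.17 to 1.07, and it was not called (adjusted p = 0.189). At 34 to 66 counts per library, a change of this size was not resolved once all genes were accounted for.

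Cish counts were 84, 82 and 76 in stimulated cells against 71, 76 and 103 in controls. The groups overlapped, and control replicate 3 was the highest of the 6 libraries. Levels were 4.49 ± 0.264 CPM and 4.54 ± 0.875 CPM (SD, n = 3 each), a log2 fold change of -0.02 with a 95% interval of -0.39 to 0.36 (adjusted p = 0.981). Cish, with 4 gamma-activated-site motifs in its window, showed no called change. The Socs3 window lies inside the annotated gene, so its lack of both motifs cannot be set against the Cish window. A link between motifs and response was not tested.

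Socs4 and Socs5, which are known to act on the epidermal growth factor receptor, were well counted. Socs4 had 389, 365 and 343 counts in stimulated cells and 387, 399 and 365 in controls, and the groups overlapped. Its log2 fold change was -0.04 with a narrow 95% interval of -0.21 to 0.12 (adjusted p = 0.858).

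Socs5 counts were 885, 809 and 828 after stimulation, and 844, 975 and 211 in controls. Control replicate 3 stood far below the other 5 libraries, whereas control replicate 1 lay within the range of the stimulated values and control replicate 2 above it. With all libraries the log2 fold change was 0.34, its 95% interval ran from -0.40 to 1.08, and it was not called (adjusted p = 0.710). Without control replicate 3 it was -0.09 (adjusted p = 0.511), so the sign of the Socs5 value rested on this library.

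Socs6 and Socs7, which bind insulin receptor substrates among other proteins, did not pass the test either. Socs6 had counts of 120, 133 and 118 against 114, 89 and 119. Scaled to library size, its stimulated libraries (6.50 to 7.55 CPM) lay just above the controls (4.80 to 6.41 CPM). The log2 fold change was 0.23 with a 95% interval of -0.09 to 0.55 (adjusted p = 0.525). Socs7 had counts of 517, 458 and 561 against 526, 554 and 542, and the groups overlapped. Its log2 fold change was -0.05 with a 95% interval of -0.20 to 0.10 (adjusted p = 0.803).

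**Figure D3:**
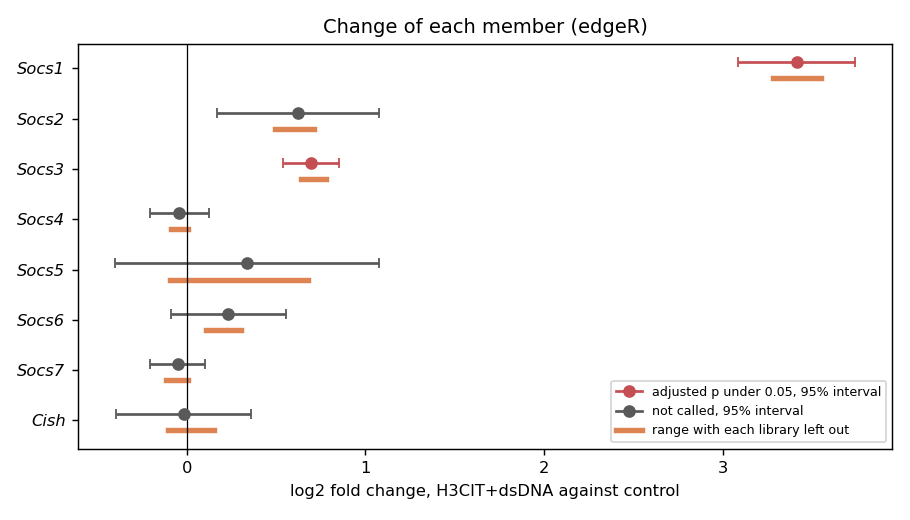
Log2 fold change of each member, H3CIT+dsDNA against control, from edgeR (points with 95% intervals, red where the adjusted p was under 0.05) and the range of values when each library was left out in turn (orange). The orange range stays above 0 for Socs1, Socs2, Socs3 and Socs6 and crosses 0 for Socs4, Socs5, Socs7 and Cish. The 95% interval excludes 0 for Socs1, Socs2 and Socs3, of which Socs2 was not called.

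Socs1 made up a larger share of the family's reads in stimulated cells. Of the summed counts of all 8 genes, Socs1 contributed 13.0%, 16.8% and 18.3% in stimulated libraries and 2.11%, 1.76% and 2.76% in controls. The 95% Wilson intervals, which cover counting error only, reached from 11.9% upwards in stimulated cells and up to 3.57% in controls. The mean share was 16.0% ± 2.75 against 2.21% ± 0.510 (SD, n = 3 each). An exact permutation test over libraries, two-sided, gave p = 0.1, the smallest value that 3 against 3 libraries allow. The low Socs5 count of control replicate 3 enters this sum, and without that library the difference of 13.8 percentage points became 14.1.

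Within each library, the log2 ratio of Socs1 to Socs3 counts was -1.12, -0.65 and -0.57 after stimulation and -3.52, -3.54 and -3.39 in controls. This ratio does not depend on library scaling, and it shifted by 2.70 on the log2 scale (exact permutation test, two-sided, p = 0.1, again the smallest possible). The groups did not overlap. Socs1 thus moved further than Socs3 in these libraries. Leaving out each library in turn, the shift ran from 2.60 to 2.87.

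**Figure D4:**
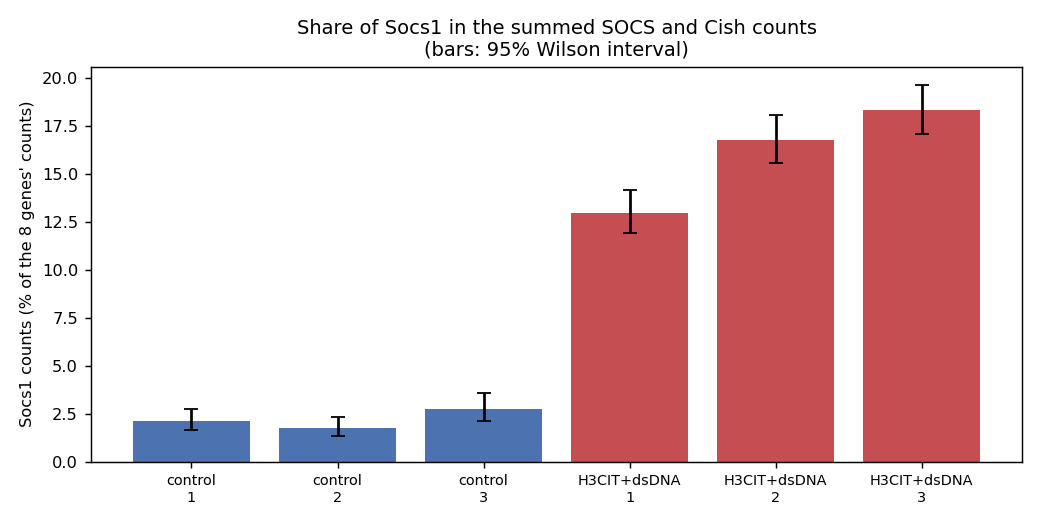
Share of Socs1 in the summed counts of the 8 genes, in percent, for each library (bars, with 95% Wilson intervals for counting error). The control libraries lie between 1.76% and 2.76%, and the stimulated libraries lie between 13.0% and 18.3%.

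Of the JAK kinases and STAT factors that SOCS proteins oppose, 1 of 10 genes tested was called. Jak2, the kinase of growth hormone and interferon-gamma receptors, had counts of 859, 853 and 863 after stimulation and 234, 330 and 256 without it. Its log2 fold change was 1.68, with an adjusted p of 6.85e-08. Jak1 was at 0.09 (adjusted p = 0.523) and Tyk2 at 0.05 (adjusted p = 0.731). Among the STATs, log2 fold changes were -0.02 for Stat3, -0.04 for Stat5a and -0.20 for Stat5b, with adjusted p-values up to 0.883. The median of this list was -0.01.

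Cytokine receptor chains were not called in any of 14 genes tested by edgeR, DESeq2 or limma-voom, and 3 had an unadjusted p under 0.05. Over all 12591 genes tested by edgeR, 1755 had an unadjusted p under 0.05, the background for this and the later lists. Il6st, the most counted of them, encodes gp130 and was at 0.10 on the log2 scale (adjusted p = 0.333). The median of the chains was 0.09.

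Among the cytokine ligands, 2 of 9 genes tested were called, and the median of the list was 0.06. Ifng, which encodes interferon-gamma, had counts of 67, 66 and 68 against 32, 23 and 26. Its log2 fold change was 1.33, with an adjusted p of 0.00327. Il12a, a subunit of interleukin-12, had counts of 56, 55 and 58 against 23, 22 and 21. Its log2 fold change was 1.38, with an adjusted p of 0.00242. The other 9 ligands of the list, among them Ifnb1, Il10 and Osm, were too low to be tested, with no library above 11 counts. Lymphocytes, the usual source of interferon-gamma, were represented by Cd3e, Cd3g, Cd4, Cd8a and Cd79a at no more than 6 counts each.

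Genes known as targets of STATs did not follow a common course. The lists did not separate targets that a STAT raises from those that it lowers. The list of STAT3 targets left out the SOCS genes themselves, of which Socs1 and Socs3 were called. None of its 11 genes was called by edgeR, DESeq2 or limma-voom, and 2 of them had an unadjusted p under 0.05. Their median was -0.03. The most counted, the cyclin gene Ccnd1, was at 0.01 (adjusted p = 0.952). Of the 5 STAT5 targets tested, Igf1 and Bcl6 rose and Bcl2l1 fell, and the median was -0.03. Igf1, the insulin-like growth factor, had counts of 78, 77 and 69 against 22, 23 and 22. Its log2 value rose by 1.76, with an adjusted p of 0.000146. The transcriptional repressor Bcl6 was at 0.47 (adjusted p = 0.0334), and Bcl2l1, which encodes the survival protein BCL-XL, was at -0.31 (adjusted p = 0.000628). The call of Bcl6 was lost with a replicate block and in 5 of the 6 fits that left out 1 library, where its adjusted p reached 0.117.

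Of the machinery through which SOCS proteins act, no gene passed the test. Of the ubiquitin ligase partners of the SOCS box, none of 8 was called by edgeR, DESeq2 or limma-voom. An unadjusted p under 0.05 was found for 2 of these 8, and for 1755 of all 12591 genes tested. The scaffold Cul5 was at 0.22 (adjusted p = 0.132) and the most counted partner, Rbx1, was at -0.08 (adjusted p = 0.376). Of the other proteins with a SOCS box, the Asb, Spsb, Wsb and Rab40 genes, none of 16 was called by these tools and 1 had an unadjusted p under 0.05. The most counted, Wsb2, was at -0.05 (adjusted p = 0.647).

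Other inhibitors of the JAK-STAT pathway, the PIAS proteins, phosphatases and adaptors, were not called either in 12 genes tested, again by all 3 tools, and 1 had an unadjusted p under 0.05. The tyrosine phosphatase gene Ptpn11 was the most counted and was at -0.03 (adjusted p = 0.828). The medians were -0.06 for the ligase partners, -0.06 for the other SOCS box genes and 0.01 for the inhibitors. Among proteins that SOCS members bind beyond the JAKs, 1 of 12 was called, and the median was 0.07. This was Egfr, the epidermal growth factor receptor, whose counts were 2324, 2356 and 2334 against 1123, 1121 and 1320 (log2 fold change 1.01, adjusted p = 7.22e-08).

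**Figure D5:**
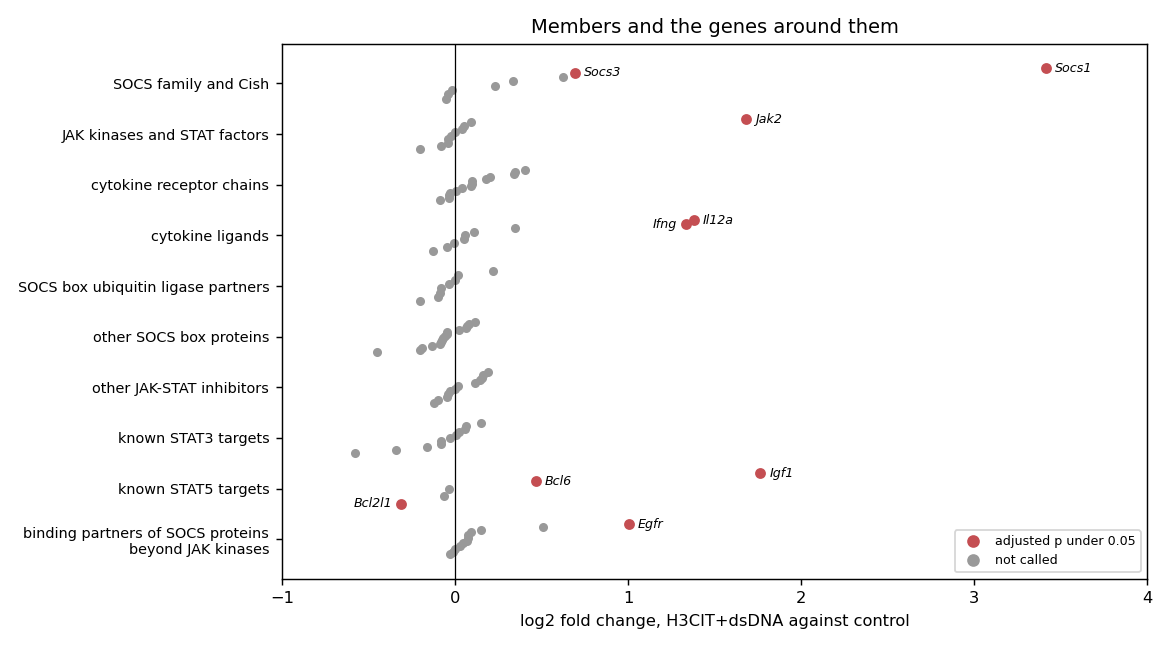
Log2 fold change, H3CIT+dsDNA against control, of the 8 members and of the tested genes of each list (1 point per gene, red and named where the adjusted p was under 0.05). Socs1 at 3.41 lies furthest to the right, and most genes of the lists lie close to 0.

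The genes whose profile over the 6 libraries lay nearest to that of Socs1 were Atm, Nupr1 and Ctsl, with a root mean square distance of 0.34, 0.36 and 0.45 between centred log2 CPM values. Their counts rose in the same libraries, for example from 45, 44 and 47 to 354, 294 and 335 for Atm, the DNA damage kinase. Nearest to Socs3 were Il12b, Hax1 and RGD1310951, at distances of 0.10 to 0.11. These distances rank profiles over 2 groups of 3 libraries and carry no test.

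The genes next to Socs1 and Socs3 were looked at to see whether the rise was shared along the chromosome. On GRCr8 the nearest tested genes on either side of Socs1 are Rmi2 and Clec16a. Neither was called, and their log2 fold changes were -0.41 (adjusted p = 0.231) and 0.03 (adjusted p = 0.838). Those of the neighbours of Socs3, Birc5 and Pgs1, were -0.06 (adjusted p = 0.726) and -0.04 (adjusted p = 0.722). A further locus, LOC134480746, overlaps Socs1 on GRCr8. The strand setting of the counting was not given in the sources used here, so reads of overlapping genes may have been shared.

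The digits of the deposited counts were also examined, after the counts had been seen. All 6 counts of Socs3 and the 3 stimulated counts of Socs1 contained no more than 2 different digits each. Among the other members, 11 of 24 counts of 3 digits (45.8%) had this form too. Of 36286 counts of 3 digits over all symbols, 28.3% had this form, against 28.0% of all whole numbers with 3 digits. Over called genes whose log2 fold change exceeded 0.5 in size, the share was 54.0% of 428 counts, and over all other genes tested it was 28.0%. Socs3 was 1 of 5 genes, of 5486 with 6 counts of 3 digits, in which all 6 had this form. In no member did the 3 counts of a group form an unbroken run of whole numbers, as they did for Il12a in controls and for Ifng after stimulation. How the counts came to have these forms was not tested, and the tests for Socs1 and Socs3 take the counts as deposited.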

How the data were processed

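RNA of RASMCs was measured in 6 libraries, 3 per group. Per the study's methods, the authors made stranded mRNA libraries, aligned reads to Rnor6.0 with TopHat 2.1.1 and counted reads per gene with HTSeq. The deposited table holds counts per gene symbol, and whether these are the HTSeq output unchanged was not tested. The submitters' processing notes also list Cufflinks 2.2.1 and Cuffdiff. All 6 columns were assigned by sample title.

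From the counts, filterByExpr and TMM preceded edgeR's quasi-likelihood test (edgeR 4.0.16, R 4.3.3). P-values are two-sided and were adjusted by Benjamini-Hochberg for 12591 genes. All 8 members passed the filter. The 95% intervals use the test's degrees of freedom. Alternatives covered 3 scalings, DESeq2 1.42.0, limma-voom (limma 3.58.1), 2 filters, robust dispersions, leaving out each library, and a replicate block. Fits were tested on simulated counts.

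Members and lists were chosen with earlier results of these data known. Beside the members, JAK and STAT genes, up to 3 called genes per list (or the most counted) and the 3 nearest profiles of each called member were named. Cul5, the neighbours and the markers fall outside this rule and were named for their role or position. No replicate pair differed by as little as counting noise (smallest chi-square per gene 3.27). Protein sequences were not analysed here, and some genes and the list resting on one of them are not reported here.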

Additional observations from a re-analysis of the deposited data

How the results depend on the processing

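Over 15 alternatives, Socs1 and Socs3 kept their call and direction and the other 6 members stayed uncalled. The log2 fold change of Socs1 ran from 3.28 to 3.55 (adjusted p at most 1.40e-06) and that of Socs3 from 0.64 to 0.78 (adjusted p at most 0.000841). Socs2 ran from 0.50 to 0.71 and was called in none of the 15, with adjusted p-values from 0.147 to 0.439. The sign turned, without a call, for Socs5 without control replicate 3, and for Socs4 and Socs7 without H3CIT+dsDNA replicate 3 and replicate 2, respectively. It also turned for Cish without H3CIT+dsDNA replicate 3, without control replicate 3 and with library size alone. Over all genes, 277 were called. When libraries were removed one at a time the count lay between 164 and 357. It was 164 if H3CIT+dsDNA replicate 1 was removed and 184 if control replicate 1 was.

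With a replicate block, 212 genes and 2 members were called. Same-numbered libraries did not deviate together (correlations across genes -0.05, 0.00 and 0.04), so the numbers name the libraries only. Of 375 values under alternatives, for 25 other genes that the naming rule selected, 366 kept their side of the threshold, 6 lost a call, all for Bcl6, and 3 gained one (Il12b and RGD1310951). Depth limits what can be resolved for Socs2 and Cish, which had 34 to 66 and 71 to 103 counts per library, respectively.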

Other observations

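The low Socs5 count of control replicate 3 was not alone. Among 9784 tested genes with a mean of at least 100 counts, 10 had a level in this library below that of the lowest of the other 5 libraries divided by 3. In each of the other 5 libraries, at most 1 gene did. Among the 10 genes were Socs5, Tcf7l2, Tcp1, Tfpt, Tpt1, Traf6, Tram1, Xrcc6 and Zbtb4, and none of the 10 was called. In control replicate 3 they stood at 0.0888 to 0.298 times the mean CPM of the other controls, with a median of 0.255. Tpt1, for example, had 5523 counts there and 18547 and 19056 in the other controls. The deposited table is ordered by symbol, apart from 12 neighbouring pairs, and Socs5 is the first of the 10 in that order. Of the 9784 genes, 7895 come before Socs5. That none of these met the criterion in control replicate 3 follows from Socs5 being the first and is no separate result. The 10 genes were noticed after the counts had been seen. What lowered the counts was not tested.

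Counts made of at most 2 different digits were found for all 6 libraries in Fgfr2, Meaf6, Npr1, Socs3 and Tor3a. Fgfr2 had 898, 888 and 899 counts after stimulation and 232, 332 and 212 in controls, and Npr1 had 333, 330 and 343 against 121, 110 and 121. Fgfr2, Npr1 and Socs3 were called. In called genes whose log2 fold change exceeded 0.5 in size and that had a group mean of at least 20 counts, the counts of a group were 3 consecutive whole numbers in 14.7% of 143 genes in controls and in 7.14% of 154 genes after stimulation, against 0.198% and 0.275% of the other genes tested. The origin of these patterns was not tested.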
